A study of Mus musculus with 6 samples.

Results

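Mucins were followed in colon tumours of mice that carry a human IL8 transgene and of wild type mice. The family was taken by name, as every probe set annotated to Muc1, Muc2, Muc3, Muc4, Muc6, Muc13, Muc16, Muc20, Muc5ac or Muc5b and to no other gene. The short array probes that together read 1 transcript are called a probe set. Of these 10 genes, 9 had a probe set, 13 probe sets in all among the 34958 that carry a single gene symbol, and none was annotated to Muc6, which was not analysed here. Total RNA of 6 tumour samples was hybridised to 1 array each. There were 3 samples from IL8 transgenic mice, which express the human neutrophil-attracting chemokine IL8 (CXCL8), and 3 from wild type control mice, all of the mixed strain CBA/C57BL/6 and all recorded as male. The age of the mice, the promoter that drives the transgene, the way the tumours were induced and the number of tumours per array are not stated in the sources used here. The p-values therefore cover the spread among these 6 samples and nothing beyond it.

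Mucins are long glycoproteins whose serine- and threonine-rich stretches carry dense O-linked sugar chains. The secreted, gel-forming members (Muc2, Muc5ac, Muc5b and Muc6) join end to end into the mucus gel, and in the colon that gel is built mainly of Muc2 from goblet cells. The membrane-bound members (Muc1, Muc3, Muc4, Muc13, Muc16 and Muc20) stand on the apical surface of epithelial cells, where they form part of the glycocalyx, and some pass signals into the cell.

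The values are deposited log2 expression values, with array medians of 3.31 to 3.36. The epithelial genes Krt20, Vil1 and Krt19 were bright on all arrays of these colon tumours, with lowest values of 11.19, 11.50 and 13.14. The labels and the arrays differed in 1 respect: at its brightest probe set Xist, the RNA of the inactive X chromosome, was at 12.89, 12.27 and 12.78 on the transgenic arrays, against 2.33, 2.64 and 2.44 on the control arrays, although all mice are recorded as male. Genotype and this split cannot be told apart in any comparison given here. On transgenic array 2, 21 of 22 squamous epithelium genes had their highest value, and 12 of them lay under 4 on every other array. On transgenic array 1 the difference between the 3′ and 5′ control probe sets of Gapdh was 0.71, against 0.94 and 0.96 on the other transgenic arrays and 0.87 to 0.95 on the control arrays.

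The mucins of these tumours divided into a detected and an undetected set, and each of the 6 tested probe sets lay above 4 on all arrays of both groups. Testing required a log2 level of 4 or more on 3 or more arrays. This held for 6 mucin probe sets, which stand for 5 genes: the secreted Muc2 and the membrane-bound Muc1, Muc3, Muc4 and Muc13. Of the 7 probe sets that were not tested, 6 lay under 4 on all arrays. No tested mucin passed the test between genotypes: with limma, 0 of the 6 reached an adjusted p under 0.05, against 0.0570% of all 19310 tested probe sets. At an unadjusted p under 0.05 the count was also 0 of 6, against 5.50% of all tested probe sets. Groups did not overlap for 0 of 6, against 10.9%, and 0 of 6 differed by 2-fold or more (1 log2 unit), against 4.51%. The median difference of the 6 was 0.31, transgenic minus control, with 5 positive and 1 negative, and the median of all tested probe sets was -0.02. The smallest limma adjusted p among them was 0.819.

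**Figure D1:**
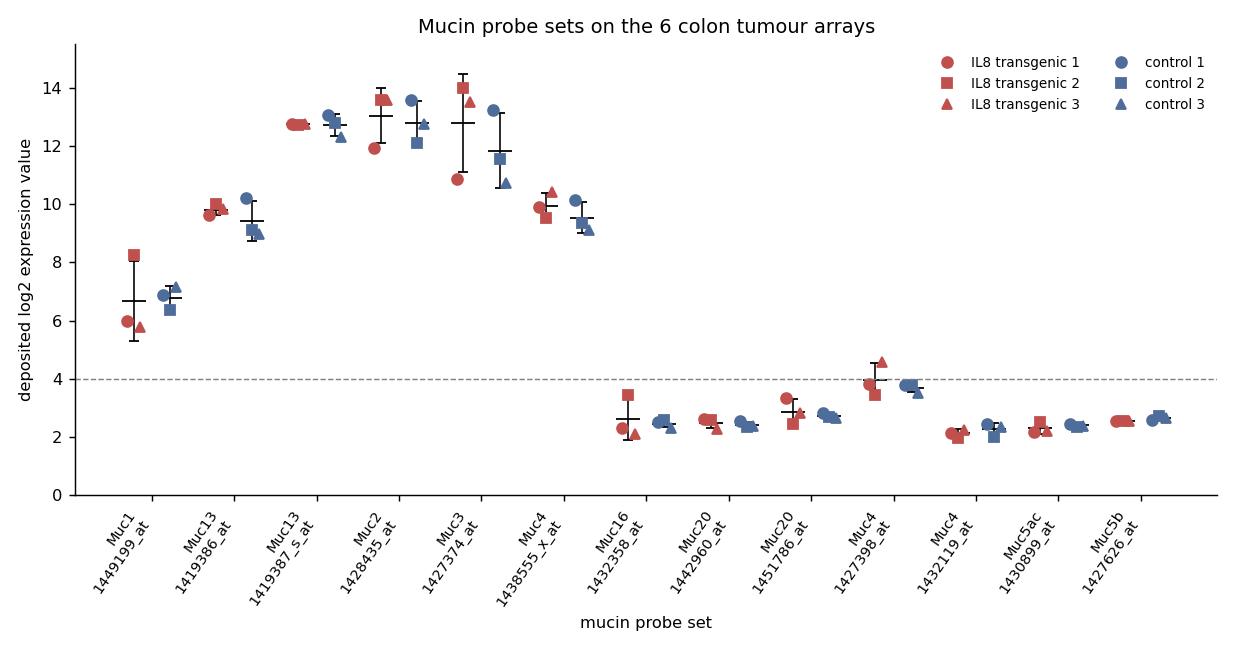
Deposited log2 value (vertical axis) of each of the 13 mucin probe sets (horizontal axis, tested ones on the left) on the 3 IL8 transgenic and 3 control arrays, with bars for mean and SD and a dashed line at the test level of 4. Points of the 2 groups overlap for each of the 6 tested probe sets, and the 7 others lie near or under 4.

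Muc2, the gel-forming mucin of goblet cells, was bright on all arrays and varied within both groups. It was at 11.94, 13.58 and 13.58 on transgenic arrays 1, 2 and 3, against 13.58, 12.08 and 12.74 on control arrays 1, 2 and 3. Transgenic arrays 2 and 3 and control array 1 thus shared the high level, and transgenic array 1 was the lowest of all 6. These 3 high values lay within 0.0066 of each other, below the brightest probe set of any array (14.60 to 14.73). The means were 13.03 ± 0.94 in transgenic and 12.80 ± 0.75 in control tumours (SD, n = 3 each). They differed by 0.23 ± 0.57 (SE) with a 95% interval of -1.15 to 1.61 (limma adjusted p 0.936). The sign of this difference turned with a single array: it was 0.78 without transgenic array 1, -0.04 without transgenic array 2 or 3 and -0.13 without control array 2.

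Muc3, a membrane-bound mucin of the intestinal surface, spanned the widest range of the tested mucins and followed nearly the same arrays. It was at 10.87, 14.00 and 13.51 on transgenic arrays 1, 2 and 3, against 13.25, 11.55 and 10.72 on control arrays 1, 2 and 3. The same 3 arrays were high as for Muc2, and transgenic array 1 lay among the low control arrays. Its range over the 6 arrays, 3.29, was larger than that of 97.2% of all tested probe sets, whose median range was 0.81, while the range of Muc2, 1.64, was larger than that of 84.6%. The group means were 12.79 ± 1.68 in transgenic and 11.84 ± 1.29 in control tumours, and the difference of 0.96 ± 0.98 (SE) had a 95% interval of -1.42 to 3.34 (limma adjusted p 0.839). Without transgenic array 1 the groups no longer overlapped and the Muc3 difference was 1.92 (unadjusted p 0.0473, limma adjusted p 0.654), while without transgenic array 2 it was 0.35.

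The promoters of Muc2 and Muc3 are shown because the values of these genes moved together over the arrays. Cdx2 and GATA factors, intestinal transcription factors, are known to act on the Muc2 promoter. Capitals mark the Cdx core TTTAT, which reads ATAAA on the other strand, and the GATA motif AGATAA, which reads TTATCT on the other strand. Both strands were searched. Each window holds the 250 bases before the annotated start, 5′ to 3′ along the gene, from RefSeq on build GRCm38.p6, and the array values themselves name no build. Muc2 is at chr7:141690090-141690339 on the plus strand and Muc3 at chr5:137166047-137166296 on the minus strand.
Muc2: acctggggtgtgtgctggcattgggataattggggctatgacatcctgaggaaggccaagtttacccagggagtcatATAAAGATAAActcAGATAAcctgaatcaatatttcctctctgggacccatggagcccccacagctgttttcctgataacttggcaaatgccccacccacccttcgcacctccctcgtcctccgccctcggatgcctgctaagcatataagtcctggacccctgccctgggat
Muc3: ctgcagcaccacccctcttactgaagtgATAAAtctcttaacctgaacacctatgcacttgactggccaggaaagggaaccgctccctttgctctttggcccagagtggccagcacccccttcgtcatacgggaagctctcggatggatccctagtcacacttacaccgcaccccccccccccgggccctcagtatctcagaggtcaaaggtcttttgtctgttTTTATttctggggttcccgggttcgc
The Muc2 window held 2 Cdx cores, with first letters 173 and 167 bases before the start, and 2 GATA matches, at 169 and 159. The first GATA match overlaps both Cdx cores, so that they form 1 run of capitals. The Muc3 window held 2 Cdx cores, at 222 and 26 bases before the start, and no GATA match. The windows of the other tested mucins, Muc1, Muc4 and Muc13, held no GATA match. Each held 1 match to the Cdx core letters, at 30, 35 and 179 bases before the start. These letters were thus not limited to the genes that moved together. The matches in Muc1 and Muc4, and the one at 173 in Muc2, follow a t. They therefore read TATAAA, which are also the letters of a TATA box. The Cdx core was in 37.3% of the 32851 promoter windows of this length, and the GATA motif in 9.99%. A match describes letters only, and no binding was measured.

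Most goblet cell genes had their highest values on the same arrays as Muc2 and Muc3. For Muc2 and Muc3 the 3 highest arrays were transgenic arrays 2 and 3 and control array 1. That set was taken after the values of Muc3 had been seen. Of 22 tested goblet cell genes, 17 (77.3%) had the same 3 highest arrays, against 8.51% of all 10289 tested genes, each read at its brightest probe set. The 5 that had not were Clca3a1, Bcas1, Foxa3, Gfi1 and Ang4, named here after their values were seen. The same held for 14 of 21 genes of absorptive colonocytes (66.7%) and for 11 of 25 genes of mucin O-glycosylation (44%), so that the order was not limited to goblet cell genes. Of the 5 tested mucin genes, Muc2 and Muc3 had it, and Muc1, Muc4 and Muc13 did not. In bulk tumour RNA, fewer cells of a type and less RNA per cell cannot be told apart.

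**Figure D2:**
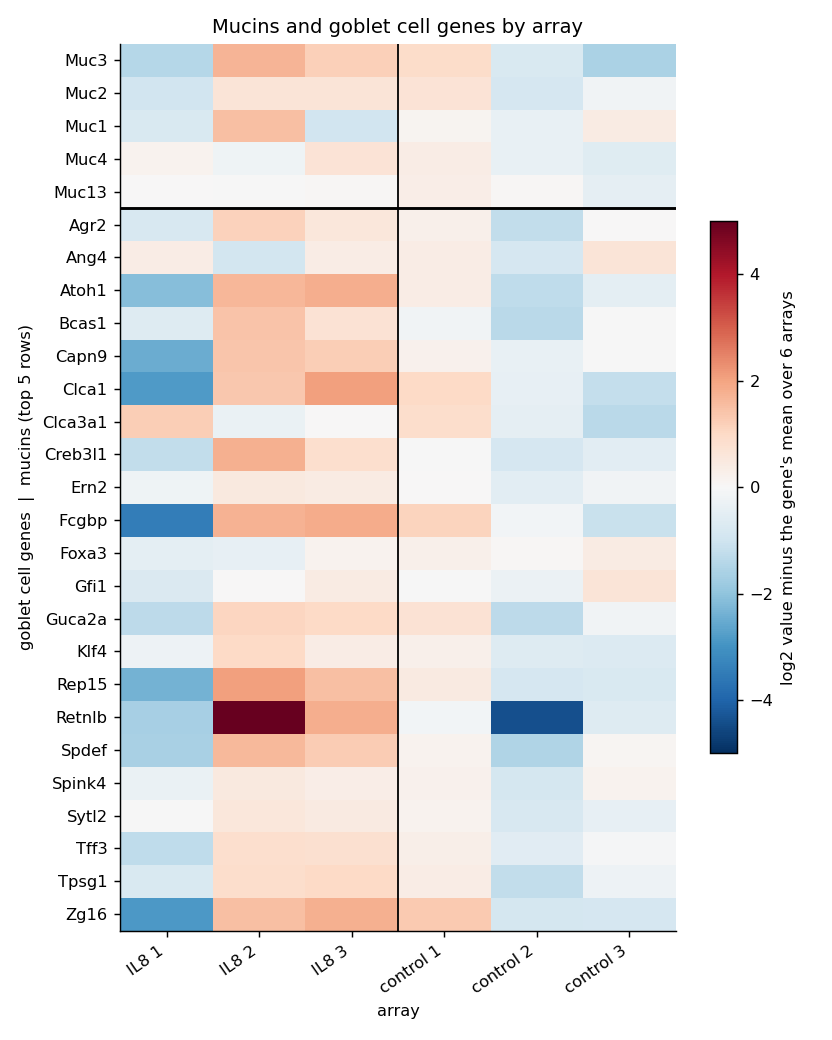
Log2 value minus the gene's own mean over the 6 arrays (colour) for the 5 tested mucin genes and the 22 tested goblet cell genes (rows) on each array (columns, transgenic on the left). Most goblet rows, like Muc2 and Muc3, are positive on transgenic arrays 2 and 3 and control array 1 and negative on transgenic array 1 and control array 2, and Muc1, Muc4 and Muc13 show other patterns.

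Among single goblet cell genes, Fcgbp, which encodes a protein bound to the Muc2 gel, was at 6.77, 11.98 and 12.12 on transgenic arrays 1, 2 and 3, against 11.36, 10.10 and 9.15 on control arrays 1, 2 and 3. Clca1, a secreted metalloprotease that processes Muc2, was at 8.46, 12.65 and 13.35 on the transgenic arrays, against 12.30, 10.87 and 10.08 on the control arrays. Both were lowest on transgenic array 1, as Muc2 was. The lectin gene Zg16 was at 9.54, 13.89 and 14.17 on the transgenic arrays, against 13.70, 11.52 and 11.56 on the control arrays. The trefoil factor gene Tff3, a peptide secreted with mucus, was at 11.67, 13.78 and 13.76 on the transgenic arrays, against 13.26, 12.40 and 12.89 on the control arrays. Agr2, a disulfide isomerase needed to make Muc2, was at 10.75, 12.70 and 12.09 on the transgenic arrays, against 11.80, 10.31 and 11.55 on the control arrays. Transcription factor genes of the secretory lineage did not all share this order. Spdef, which drives goblet cell maturation, was at 4.07, 7.30 and 6.96 on transgenic arrays 1, 2 and 3, against 5.85, 4.19 and 5.79 on control arrays 1, 2 and 3, and Atoh1, which commits cells to the secretory lineage, was at 3.89, 7.68 and 7.85, against 6.38, 4.76 and 5.52. Foxa3 was at 9.43 to 10.08 on the transgenic arrays, against 9.99 to 10.35 on the control arrays, and Gfi1 was at 3.63 to 4.76, against 4.04 to 4.996, so that both were highest on control array 3. For the 7 genes from Fcgbp to Atoh1 the groups overlapped, with differences from 0.09 for Fcgbp to 0.92 for Atoh1 and limma adjusted p from 0.834 to 0.988.

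As a list, 19 of 22 tested goblet cell genes were above the control mean and 3 below it, with a median difference of 0.55, where 46.2% of all tested genes were above it and their median difference was -0.02. None of the 22 had an adjusted p under 0.05 and none an unadjusted p under 0.05. The list was assembled with earlier results of these arrays known. Leaving out transgenic array 1, 2 or 3 gave a list median of 1.30, 0.22 or 0.24, and leaving out control array 1 or 2 gave 0.99 or 0.29. Those with the smallest p were Sytl2 (0.68), Foxa3 (-0.50), Retnlb (3.43) and Klf4 (0.72), with adjusted p of 0.806 each. The median deviation of the list from the 6-array mean was -1.01, 1.11 and 0.83 on transgenic arrays 1, 2 and 3, against 0.27, -0.85 and -0.21 on control arrays 1, 2 and 3. Transgenic array 1, lowest here and for Muc2, had the smallest Gapdh difference between 3′ and 5′ probe sets (0.71) as well. The Actb difference was also smallest there, at 1.46 against 1.66 to 1.82 on the other arrays. A loss of 5′ signal makes such a difference larger. The part of the control differences in these values was not tested.

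The enzymes that put O-linked sugars on mucins were described in the same way. Of 31 listed genes, 25 were tested, of which 19 were above the control mean and 6 below it, with a median difference of 0.42 that was 0.24 without transgenic array 2. None had an adjusted p under 0.05. An unadjusted p under 0.05 was found for 4 of the 25, against 5.50% of all tested probe sets and 599 of 10289 tested genes. Groups did not overlap for 3 of the 25, against 10.9% of all tested probe sets and 1186 of 10289 tested genes. Fut4, a fucosyltransferase, was at 10.20, 10.45 and 9.24 on transgenic arrays 1, 2 and 3, against 7.88 to 8.74 on the control arrays. Gcnt1, which makes the core 2 branch, was at 8.53, 9.64 and 9.26 on the transgenic arrays, against 8.24, 7.31 and 7.81 on the control arrays. In both genes the lowest transgenic array lay above the highest control array, with differences of 1.69 ± 0.38 and 1.35 ± 0.36 (SE). St6galnac2, a sialyltransferase, was at 8.17, 8.05 and 8.98 on the transgenic arrays, against 9.21, 9.30 and 9.58 on the control arrays, so that the highest transgenic array lay below the lowest control array (-0.96 ± 0.28). Galnt12, which starts O-glycan chains, differed by 0.82 ± 0.34 with overlapping groups. All 4 had a limma adjusted p of 0.806. The sialyltransferase gene St6galnac1 and the core 3 enzyme gene B3gnt6 lay under 4 on all arrays.

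Muc13, a membrane-bound mucin of the intestinal surface, was read by 2 probe sets that both passed the filter. The brighter one had the smallest range of the tested mucin probe sets, while the other spanned 1.24, close to the 1.28 of Muc4. At the brighter one, 1419387_s_at, it was at 12.74, 12.72 and 12.77 on transgenic arrays 1, 2 and 3, against 13.07, 12.78 and 12.30 on control arrays 1, 2 and 3. The 3 transgenic arrays lay within the range of the control arrays. The SD was 0.026 among transgenic and 0.39 among control arrays, and the range of 0.78 over all arrays was close to the median of tested probe sets, 0.81. The Muc13 difference there was 0.03 ± 0.22 (SE), and its 95% interval of -0.51 to 0.56 did not reach a 2-fold change in either direction (limma adjusted p 0.981). At 1419386_at it was at 9.61, 10.00 and 9.82 on the transgenic arrays, against 10.21, 9.09 and 8.97 on the control arrays, a difference of 0.39 ± 0.35 with a 95% interval of -0.46 to 1.23 (limma adjusted p 0.828). Control array 1 was high at both probe sets. Without it the second probe set no longer overlapped between groups and differed by 0.78 (unadjusted p 0.0110, limma adjusted p 0.821), while the first differed by 0.21. Without control array 3 the first differed by -0.18, with no overlap between groups, and the second by 0.16.

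Muc4, a membrane-bound mucin that also binds the receptor ErbB2, was read by 3 probe sets, and only 1438555_x_at was tested. In this array's naming the ending _x_at marks probes that may also bind other transcripts, so that this level is not certain to be Muc4 alone. In the RefSeq annotation of GRCm38.p6 Muc4 overlaps its neighbour Muc20 on chromosome 16, and the probe positions were not used here. Muc4 was at 9.90, 9.52 and 10.40 on transgenic arrays 1, 2 and 3, against 10.12, 9.35 and 9.12 on control arrays 1, 2 and 3. The groups overlapped, since control array 1 lay above transgenic arrays 1 and 2. The difference was 0.41 ± 0.34 (SE) with a 95% interval of -0.42 to 1.23 (limma adjusted p 0.819), and without control array 1 it was 0.70, with no overlap between groups (unadjusted p 0.0680, limma adjusted p 0.821). Of the other Muc4 probe sets, 1427398_at reached 4.59 on transgenic array 3 and was at 3.82 or less on the others, and 1432119_at was at 2.44 or less throughout.

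Muc1, a membrane-bound mucin of many glandular epithelia whose tail takes part in signalling, stood apart on a single array. It was at 5.97, 8.25 and 5.77 on transgenic arrays 1, 2 and 3, against 6.87, 6.35 and 7.15 on control arrays 1, 2 and 3. Transgenic array 2 was the highest of all, and the other transgenic arrays were the lowest. The means were 6.66 ± 1.38 in transgenic and 6.79 ± 0.41 in control tumours. They differed by -0.13 ± 0.67 (SE) with a 95% interval of -1.75 to 1.50 (limma adjusted p 0.971). Without transgenic array 2 the Muc1 difference was -0.92, the groups did not overlap and the unadjusted p was 0.0169, with a limma adjusted p of 0.924. Without transgenic array 1 it was 0.22, and without transgenic array 3 it was 0.32.

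Transgenic array 2 was also the array on which 21 of 22 squamous epithelium genes had their highest value. Some of them were above 4 on other arrays too: Krt14 was at 5.70 to 8.04 on the others, and Krt6a at 6.96 on transgenic array 3. The genes that follow belong to the 12 that lay under 4 on every other array. The keratin gene Krt5 was at 2.82, 10.27 and 2.77 on transgenic arrays 1, 2 and 3, against 2.86, 2.74 and 2.66 on control arrays 1, 2 and 3. Trp63, the transcription factor of basal squamous cells, was at 1.97, 8.97 and 1.98 on the transgenic arrays, against 2.20, 2.29 and 2.22 on the control arrays, and Krtdap was at 2.23, 12.31 and 2.22, against 2.33, 2.62 and 2.43. The part of these markers in the Muc1 value was not tested. Muc16, a very large membrane-bound mucin of wet-surfaced epithelia, also had its highest value on that array: it was at 2.30, 3.43 and 2.11 on the transgenic arrays, against 2.50, 2.57 and 2.32 on the control arrays. All of these Muc16 values lie under 4, so no difference is drawn from them.

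**Figure D3:**
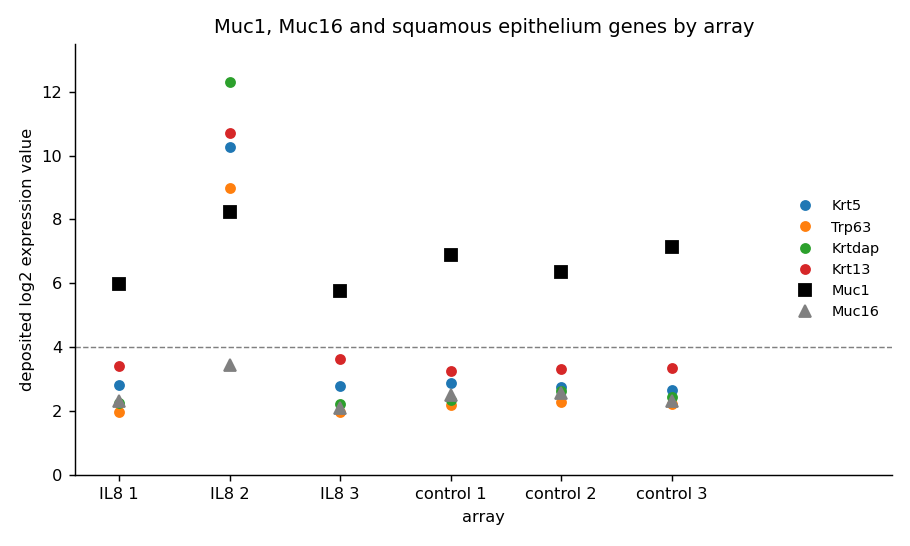
Deposited log2 value (vertical axis) of Muc1, Muc16 and 4 squamous epithelium genes on each array (horizontal axis, transgenic on the left), with a dashed line at the test level of 4. Muc1 is highest on transgenic array 2, at 8.25, the array on which Krt5, Trp63, Krtdap and Krt13 lie between 8.97 and 12.31, against 3.62 or less on the others.

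The remaining mucins were not detected in either group. The gel-forming Muc5ac, the main mucin of the stomach surface and airways, was at 2.17, 2.52 and 2.21 on transgenic arrays 1, 2 and 3, against 2.45, 2.35 and 2.39 on control arrays 1, 2 and 3. Muc5b, the gel-forming mucin of airway and salivary glands, was at 2.54 on each of the 3 transgenic arrays, against 2.57, 2.71 and 2.65 on the control arrays. Muc20, a membrane-bound mucin known from the kidney, was at 3.34 or less at its 2 probe sets. These genes lie under 4 on every array, a level that does not show whether a little transcript was present. In RefSeq, Muc6, Muc2, Muc5ac and Muc5b lie in a row on chromosome 7 with 0 protein-coding genes between neighbours, and of the 3 that were measured Muc2 was the only one with values over 4. On chromosome 16 the adjoining Muc4 and Muc20 differed in the same way, within the limit given for the Muc4 probes.

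Genes of gastric epithelium, where Muc5ac is at home, were also mostly undetected. Of 15 on the array, 8 lay under 4 on every array, among them Gkn1's relative Gkn2 and the trefoil factors Tff1 and Tff2, and 2 were tested, Ctse and Gkn3. Ctse, a protease that colon tumours can also express, differed by 0.64 ± 0.19 (SE, unadjusted p 0.0148, limma adjusted p 0.806) and Gkn3 by -1.82 ± 1.23, with transgenic array 2 at 4.22 and the other arrays at 7.90 or more. Of 12 further mucin-named or mucin-type genes on the array, 7 were tested, 4 above and 3 below the control mean. Their median difference was 0.03, and none had an adjusted p under 0.05. The sign of that median turned with 1 array: leaving out transgenic array 2 gave -0.14, control array 2 gave -0.12 and control array 1 gave -0.05. A filter at 6 gave -0.45. Podxl, a sialomucin of vessels and podocytes, differed by -0.98 ± 0.28 and had 7.46 as its highest transgenic value and 7.83 as its lowest control value (limma adjusted p 0.806). Groups did not overlap for 2 of these 7 genes, against 10.9% of all tested probe sets and 1186 of 10289 tested genes.

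**Figure D4:**
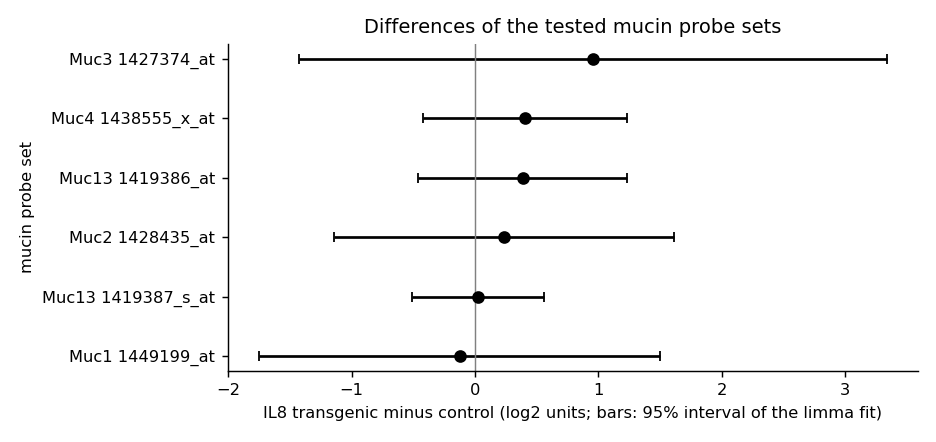
Difference of each of the 6 tested mucin probe sets, IL8 transgenic minus control (horizontal axis, log2 units), with the 95% interval of the limma fit as bars. Each interval includes 0, from the narrowest at Muc13 1419387_s_at (-0.51 to 0.56) to the widest at Muc3 (-1.42 to 3.34).

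For the mucins with a range of at least 2 log2 units, Muc1 and Muc3, the genes of most similar pattern were found by the root mean square difference of centred log2 values over the 6 arrays, among 10284 tested genes that are no mucins of this set. Those nearest to Muc3 were Adh1, an alcohol dehydrogenase (0.26), B3gnt7, an N-acetylglucosaminyltransferase (0.36), and Atp2a3, a calcium pump (0.37). Adh1 was at 9.43, 12.70 and 12.19 on transgenic arrays 1, 2 and 3, against 11.42, 10.33 and 9.76 on control arrays 1, 2 and 3, and thus shared the high and low arrays of Muc3. Nearest to Muc1 were Serpinf1, a secreted serpin (0.29), the amine oxidase gene Aoc3 (0.35) and the T cell receptor segment Trbv1 (0.35). Serpinf1 was at 3.13, 6.01 and 3.88 on the transgenic arrays, against 4.57, 3.91 and 4.59 on the control arrays, so that transgenic array 2 was again the highest. Likeness over 6 arrays is a description only.

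Marker lists of other cell types are given as counts, for the context of the mucin values. Absorptive colonocyte genes were above the control mean in 18 of 21, with a median difference of 0.35. That median rested on single arrays: leaving out transgenic array 1 gave 0.77, transgenic array 3 gave 0.10, control array 1 gave 0.64 and control array 3 gave 0.011. Of 22 squamous genes on the array, 8 were tested, without the 12 that reached 4 on transgenic array 2 alone. All 8 were above the control mean, with a median of 1.78. It became 2.70 when transgenic array 1 was left out and 0.29 when transgenic array 2 was. Of 9 mesothelial list genes on the array, 3 were tested, and all 3 were above the control mean. Their median of 0.21 was the value of Krt19, named above as an epithelial gene. The median became 0.36 when control array 2 was left out and 0.12 when control array 3 was. Deep crypt secretory genes were above the control mean in 2 of 3, with a median of 0.03. Leaving out transgenic array 2 gave -0.16 there, and leaving out transgenic array 1 gave 0.60. The tested genes of the Paneth list, Lyz1, Lyz2, Mmp7, Ang4, Itln1 and Sox9, were below the control mean in 6 of 6. Their median of -0.61 was -0.06 without transgenic array 2. Of 5 leukocyte genes on the array, Cd3e and Itgam were not tested, and the 3 others were below the control mean. Their median of -1.02 ran from -1.24 to -0.72 with 1 array left out. These 3, named after their values were seen, were Ptprc, the pan-leukocyte phosphatase CD45, and the macrophage genes Csf1r and Aif1, with differences of -0.87, -1.02 and -2.20. All 3 had an unadjusted p under 0.05, against 5.50% of all tested probe sets and 599 of 10289 tested genes. All 3 also had groups that did not overlap, against 10.9% of all tested probe sets and 1186 of 10289 tested genes. Each had a limma adjusted p of 0.806. An unadjusted p under 0.05 was also found for 1 of 6 Paneth, 1 of 21 colonocyte and 1 of 8 squamous genes. Groups did not overlap for 2, 2 and 1 genes of those lists. In none of these lists did a gene have an adjusted p under 0.05. The part of these cell types in the mucin values was not tested.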

How the data were processed

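Total RNA of 6 mouse colon tumour samples was labelled with biotin and hybridised to 1 array each, per the labels. The authors deposited log2 values made with GCRMA, per the submitters' processing notes, with no version stated. Among its steps are a background correction and a summary to 1 value for each probe set. That the scale is log2 was judged from the span of the values, which entered the fit unaltered. Genes were named through the platform's annotation table. Samples were grouped by title. Probe sets with a log2 value of at least 4 on at least 3 of 6 arrays were tested (19310, without 64 control probe sets) with limma 3.58.1 under R 4.3.3 (linear fit with moderated variance, difference as transgenic minus control, two-sided, Benjamini-Hochberg over all tested). The procedure was checked on simulated data with normal noise. There, 32% of 50 probe sets with a true difference of 1 log2 unit reached an adjusted p under 0.05. At a true difference of 2 log2 units it was 74%. These probe sets were drawn from all those tested, whose median SD was 0.31 among transgenic and 0.20 among control arrays. The SDs of Muc1, Muc2 and Muc3 among transgenic arrays were 1.38, 0.94 and 1.68, so these shares do not describe those mucins. A gene of a list was read at its brightest tested probe set. Named genes were the mucins, fixed goblet, squamous and gastric markers, up to 4 genes per list with the smallest p, and the 3 genes most like a mucin with a range of at least 2. Genes of the small lists are given as counts, with Krt19 and the Paneth and leukocyte genes also named. Guca2a stands in the goblet and colonocyte lists, Ang4 in the goblet and Paneth lists. Muc2 was left out of its list. The mucins and the lists were chosen with earlier results of these data known. Promoter sequences are from RefSeq (GRCm38.p6), which held 8 of the 10 mucins. Precision is limited by having 3 arrays per group. Same-numbered arrays did not deviate together from their group means (correlations of -0.27, -0.28 and -0.05 over tested probe sets), and the labels tie no number to a shared litter or day, so the numbers were not taken as pairs.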

Additional observations from a re-analysis of the deposited data

How the results depend on the processing

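The limma count of mucin probe sets with an adjusted p under 0.05 was 0 under all 14 alternatives run: no filter, a filter at 6, quantile normalization, median centring, values under 4 set to 4, array quality weights, the replicate block, a prior variance that is trended and robust, and leaving out each array in turn. With the replicate number as a block (replicate block) 0 mucins passed, and the adjusted p ran from 0.946 for Muc4 to 0.994 for Muc13. The number of mucin probe sets whose groups do not overlap was 0, but 1 with no filter (Muc5b, under 4 on all arrays) and 0 to 2 with 1 array left out: Muc3 without transgenic array 1, Muc1 without transgenic array 2, Muc13 (1419386_at) and Muc4 without control array 1, and Muc13 (1419387_s_at) without control array 3. With 1 array left out, the difference ran from -0.92 to 0.32 for Muc1, from -0.13 to 0.78 for Muc2 and from -0.18 to 0.21 for Muc13 at 1419387_s_at, all with turns of sign, and from 0.35 to 1.92 for Muc3, from 0.17 to 0.70 for Muc4 and from 0.16 to 0.78 for Muc13 at 1419386_at, with none. With array quality weights Muc13 at 1419387_s_at was -0.028, Muc1 -0.40, Muc2 0.70, Muc3 1.32 and Muc4 0.62, and the list medians were 1.05 for goblet, 0.78 for colonocyte and 0.90 for squamous genes. The mean of both Muc13 probe sets differed by 0.21. The cause was not tested. With 3 arrays per group, the intervals of Muc1, Muc2 and Muc3 cover changes of over 2-fold in both directions. Those of Muc4 and of Muc13 at 1419386_at cover changes of over 2-fold upward.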
